A study of Mus musculus with 52 samples.

Results

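Superoxide dismutases and the enzymes that clear peroxide were followed through the cell types of the spinal cord in mice made transgenic for mutant human SOD1, which are used to model amyotrophic lateral sclerosis. The set held 9 of the 23697 genes listed in each of 6 tables: Sod1, Sod2, Sod3, Ccs, Cat, Gpx1, Gpx4, Prdx1 and Prdx6. They were taken by gene symbol with no threshold on a measured value, and the set was chosen with earlier results of these data known. Mutant mice carried human SOD1 with the G37R or the G85R change, and controls were non-transgenic (Non-Tg). Motor neurons (4 G37R and 4 control libraries) and astrocytes (4 G37R and 6 control) were taken at disease onset with no age given, and all were labelled male. Oligodendrocytes were taken at onset, named 8 months (4 G37R and 5 control, labelled male), and at an early symptomatic stage, named 11 months (3 G37R, 3 G85R and 5 control, both sexes). Whole spinal cord was taken at 8 months (4 G37R and 4 control, labelled male) and at 11 months (3 G37R and 3 control, both sexes). Purified cells came from bacTRAP reporter mice, mutant and control alike, in which a chosen cell type carries ribosomes with EGFP-tagged RPL10A, so that its ribosome-bound mRNA can be pulled out with an antibody to GFP. The labels name no promoter for the SOD1 transgene, no driver for the reporter and no strain, and they do not state that each library is a separate animal, although the design text speaks of biological replicates. The p-values therefore measure the spread between libraries.

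Superoxide is turned into hydrogen peroxide by superoxide dismutases: SOD1 in the cytosol and the space between the mitochondrial membranes, SOD2 in the mitochondrial matrix and SOD3 outside the cell. SOD1 receives its copper from a dedicated chaperone, CCS. Hydrogen peroxide is then removed by catalase in peroxisomes, by glutathione peroxidases, and by peroxiredoxins, while GPX4 reduces lipid peroxides inside membranes and guards against ferroptosis. Astrocytes are known for strong PRDX6, which also has phospholipase activity, and motor neurons for abundant SOD1.

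Values are FPKM-equivalents, expression per transcript length and per mapped fragment, as described under the processing. The tables were normalized separately, so a level set against another table is a description. Changes within a table were tested, and so were differences between such changes of 2 tables. Changes are G37R (or G85R) minus control on the log2(value + 1) scale with the SE, tested with limma, and adjusted p is Benjamini-Hochberg over all genes tested in that comparison, with a threshold of 0.05. Relative depth within a table differed by at most 1.65 times, in 11-month spinal cord. The tables hold no row for the human transgene, so the Sod1 row does not check the genotype, and human reads aligned to mouse Sod1 cannot be told apart from mouse reads. Labelled sex was checked with 4 Y-linked genes, and 50 of 52 libraries matched. Both exceptions were controls of 11-month spinal cord: the library labelled control 1 (male) had a Y-linked sum of 0.0640 and Xist at 45.3, and the library labelled control 3 (female) had 43.1 and 0.121. The library labelled control 1 also had the highest summed astrocyte and microglia markers of its table, so the 11-month cord results are given with and without both. The purified cells held their own markers: motor neuron marker sums were at least 1938 in motor neurons and at most 119 in the other purified cells. Astrocyte libraries also held oligodendrocyte markers, summed at 5652 to 9525, beside 5440 to 10330 for astrocyte markers, so levels given for astrocytes are those of these libraries. The labels give the whole cord libraries the same GFP pulldown text, yet endothelial markers summed to 93.4 to 133 there and to at most 2.63 in purified cells. In 11-month oligodendrocytes, G85R library 1 stood apart with an astrocyte marker sum of 1074, against 253 and 392 in G85R libraries 2 and 3, and Mbp was listed at 0 in control 1.

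The G37R change lies at a glycine of SOD1, counted without the first methionine. Mouse Sod1 has a glycine codon at that position, shown here in capitals within the coding strand (GENCODE, GRCm38, chromosome 16), to place the change that the human transgene carries.

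Sod1 residue 37: ggacaaattacaGGAttaactgaaggc

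Gpx1 and Gpx4 are selenoproteins, in which a TGA codon, elsewhere a stop, is read as selenocysteine at the catalytic site. Their TGA codons are in capitals in the coding strand (GENCODE, GRCm38, chromosomes 9 and 10), at codon 47 of Gpx1 and codon 129 of the Gpx4 coding sequence used. They are shown because both genes fell in motor neurons, while of the pair Gpx1 alone passed in astrocytes.

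Gpx1 selenocysteine codon: gtcgcgtctctcTGAggcaccacgatc
Gpx4 selenocysteine codon: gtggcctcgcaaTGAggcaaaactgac

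Promoters (250 bases before to 50 after the start, RefSeq, GRCm38.p6) were available for 6 of the 9 genes: Sod1, Sod2, Cat, Gpx1, Gpx4 with 4 starts, and Prdx1. The antioxidant response element core, TGACNNNGC, which NRF2 is known to bind, was searched on both strands. It was found in Sod1 and Prdx1, and in 12.4% of all 32851 promoters of this length. Both matches read on the reverse strand and are in capitals below, at chr16:90220696-90220724 for Sod1 and chr4:116685456-116685484 for Prdx1, plus strand. The Prdx1 match overlaps 1 of its 2 matches to the AP-1 motif TGANTCA, a motif found in 7.81% of promoters. The GC box GGGCGG, in 35.7% of promoters, was found at all 6 genes. These matches are letters in a window and no binding was measured.

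Sod1 promoter window: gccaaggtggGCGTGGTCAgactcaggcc
Prdx1 promoter window: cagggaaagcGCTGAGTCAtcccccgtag

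The superoxide dismutases differed in where they were high. Sod1 (chromosome 16, 90220986 to 90226569, mm9) was highest in control motor neurons at 1473 ± 59.8 FPKM-equivalents (SD, n = 4) and next in astrocytes at 1066 ± 53.7 (n = 6). Control oligodendrocytes had 544 ± 65.2 at 11 months (n = 5) and 526 ± 59.1 at 8 months (n = 5), and whole cord 433 ± 31.9 (n = 3) and 398 ± 27.6 (n = 4). Motor neuron libraries did not overlap those of astrocytes, nor astrocytes those of oligodendrocytes, whereas the ages of oligodendrocytes and of cord overlapped. In motor neurons Sod1 stood at percentile 99.8 of the listed genes. An opposite-strand gene, Scaf4, overlaps Sod1 in the GENCODE annotation and was at 3.90 to 10.96 FPKM-equivalents over the 52 libraries. The labels do not say whether counting used strand. Sod2 (chromosome 17, 13200704 to 13210985) had a narrower spread, with a highest to lowest control ratio of 2.53. It was at 73.4 ± 3.88 in astrocytes, 61.5 ± 3.18 in motor neurons, 46.3 ± 0.9997 and 36.3 ± 2.74 in 8- and 11-month cord and 29.9 ± 2.68 and 29.0 ± 1.11 in 8- and 11-month oligodendrocytes. Sod3 (chromosome 5, 52755042 to 52760977) was highest in control astrocytes at 18.9 ± 5.30, with whole cord at 12.3 ± 1.80 at 11 months and 9.94 ± 1.96 at 8 months. It was near 1 in oligodendrocytes (1.10 ± 0.282 and 0.948 ± 0.293 at 11 and 8 months) and motor neurons (0.831 ± 0.0326), a ratio of 22.8 between the extremes. The astrocyte and cord ranges of Sod3 overlapped, as did the oligodendrocyte and motor neuron ranges.

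The copper chaperone Ccs (chromosome 19, 4825365 to 4839322) did not follow the level of its client Sod1. Control Ccs was at 76.8 ± 4.92 in astrocytes, 63.2 ± 7.32 and 61.5 ± 9.13 in 11- and 8-month oligodendrocytes, and 24.8 ± 1.31 and 20.8 ± 1.05 in 11- and 8-month cord, and lowest in motor neurons at 20.6 ± 1.98. The Sod1 level per Ccs level, taken within each library, was 72.0 ± 6.16 in control motor neurons, 13.9 ± 0.800 in astrocytes and 8.60 ± 0.501 in 8-month oligodendrocytes. Such ratios are descriptions with no test. The motor neuron libraries held the most Sod1 and the least Ccs of the purified cells.

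Among the peroxide enzymes, catalase was lowest and glutathione peroxidase 1 highest in control motor neurons, and both were high in astrocytes. Control Cat (chromosome 2, 103294060 to 103325310) was highest in astrocytes at 176 ± 15.1, then 116 ± 9.63 and 113 ± 2.66 in 8- and 11-month oligodendrocytes, 56.8 ± 2.25 and 52.0 ± 2.83 in 11- and 8-month cord and 40.0 ± 3.91 in motor neurons. Control Gpx1 (chromosome 9, 108241410 to 108242673) was highest in motor neurons at 383 ± 30.3, then 261 ± 31.6 in astrocytes, 85.2 ± 12.5 and 74.5 ± 4.21 in cord and 50.0 ± 4.09 and 49.0 ± 9.03 in oligodendrocytes. The Gpx1 level per Cat level within a library was 9.67 ± 1.58 in control motor neurons, 1.49 ± 0.189 in astrocytes and 0.422 ± 0.0725 in 8-month oligodendrocytes. Gpx4 (chromosome 10, 79516254 to 79519184) was similar in control astrocytes (689 ± 70.9) and motor neurons (654 ± 12.9), whose ranges overlapped, and lower in oligodendrocytes (409 ± 68.2 and 402 ± 56.3) and cord (175 ± 7.16 and 173 ± 9.05), 11 months before 8. A pseudogene copy of Gpx4 is annotated, and how reads were shared with it is not given in the sources used here.

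Of the 2 peroxiredoxins, Prdx6 parted astrocytes from oligodendrocytes, and Prdx1 did not. Prdx1 (chromosome 4, 116358203 to 116372605), a cytosolic peroxiredoxin with 2 catalytic cysteines, was at 654 ± 54.2 in control astrocytes and 577 ± 76.9 and 558 ± 48.0 in 11- and 8-month oligodendrocytes, with overlapping ranges. It was at 154 ± 21.6 and 115 ± 2.33 in 11- and 8-month cord and 118 ± 7.95 in motor neurons. Prdx6 (chromosome 1, 163170242 to 163181297), which uses 1 catalytic cysteine, was at 2049.8 ± 127 in control astrocytes, percentile 99.9 of the listed genes. All other control groups were far lower: 238 ± 99.4 and 148 ± 2.72 in 11- and 8-month cord, 137 ± 10.1 and 132 ± 8.10 in 8- and 11-month oligodendrocytes, and 117 ± 8.95 in motor neurons. The ratio of highest to lowest was 17.6 for Prdx6 and 5.71 for Prdx1. Prdx6b, an annotated near-copy of Prdx6, had its own row and reached at most 0.132 in any library. Order by level over the upper quartile of each library differed from this order only in swaps between the ages of oligodendrocytes, for Sod1, Ccs, Gpx1, Gpx4 and Prdx1, and between motor neurons and 8-month cord for Prdx1.

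**Figure D1:**
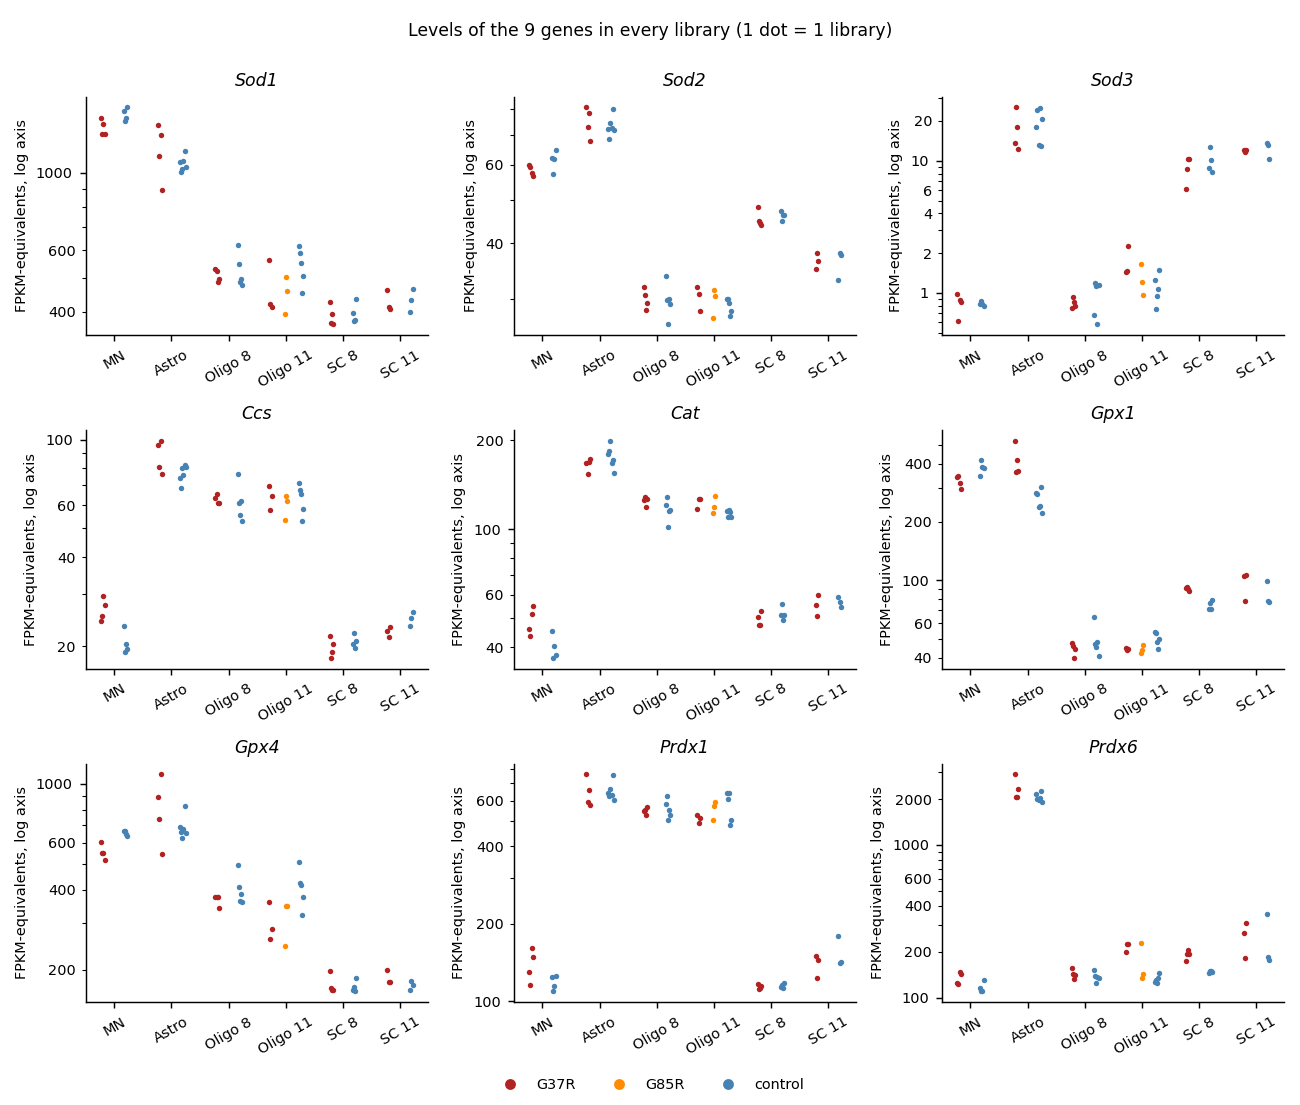
Level of each gene in every library, in FPKM-equivalents on a log axis, with 1 dot per library. MN is motor neurons, Astro astrocytes, Oligo oligodendrocytes and SC whole spinal cord, with 8 and 11 the age in months. Within each table G37R (red) stands left of G85R (orange, 11-month oligodendrocytes only) and control (blue). Prdx6 stands between 1921 and 2901 in astrocytes, while its highest library elsewhere is at 353.

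Over the 13 group means of log2(value + 1), Ccs, Cat and Prdx1 moved together across cell types (Pearson r = 0.991 for Ccs with Prdx1, 0.981 for Ccs with Cat and 0.976 for Cat with Prdx1). Sod2 went with Gpx1 (r = 0.945), and Sod1 with Gpx4 (0.885) and Gpx1 (0.878). These are descriptions over 13 groups that share tables and scaling. Among 10808 genes, those most like each member by the same measure were Skp1a and 1500011H22Rik for Sod1 (r = 0.997 and 0.995), Dpf1 and Hoxc9 for Sod2 (0.986 and 0.982), and Atp1b2 and Fcgrt for Sod3 (0.994 and 0.993). They were Mpst and Snupn for Ccs (both 0.991), Utp18 and Ech1 for Cat (0.994 and 0.991), Cox7a2l and Rps20 for Gpx1 (0.992 and 0.991), and Wdr83 and Pdcd5 for Gpx4 (both 0.996). Snupn and Rpa2 were most like Prdx1 (both 0.994), and Rras and Cth most like Prdx6 (0.993 and 0.992).

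In motor neurons at onset, as in each cell type, the comparison asked which genes differ between mutant and control libraries. No group carried normal human SOD1, so the mutation cannot be told apart from added human SOD1. Of 8 genes tested, 2 rose and 2 fell: the copper chaperone Ccs and catalase rose, and the glutathione peroxidases Gpx1 and Gpx4 fell. Over all genes 12.9% were called, 6.49% higher and 6.37% lower, and the median log2 change was 0.06 over the 8 genes and 0.01 over all 12303 genes tested. The largest of these 4 changes was that of Ccs, at 1.28-fold. Sod3 was under the minimum mean of 1 and was not tested, at 0.985, 0.618, 0.887 and 0.860 in G37R libraries and 0.825, 0.876, 0.823 and 0.799 in controls.

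Ccs was at 24.4, 25.2, 29.5 and 27.7 in G37R libraries 1 to 4, against 23.4, 19.0, 20.3 and 19.5 in controls 1 to 4. Every G37R library lay above every control (log2 change 0.36, SE 0.08, adjusted p = 0.0196), and ranges were apart for 21.5% of all genes. The Sod1 level per Ccs level was 50.9 ± 5.72 in G37R and 72.0 ± 6.16 in control motor neurons, with ranges of 46.7 to 58.9 and 64.2 to 78.9 that did not overlap. Sod1 itself was at 1434, 1290.3, 1378 and 1295 in G37R libraries, against 1505, 1410.0, 1438 and 1540.1 in controls. Its ranges overlapped, and the change did not pass (log2 change -0.13, SE 0.05, adjusted p = 0.133). Sod2 was at 56.6 to 59.9 in G37R and 57.2 to 64.8 in control libraries and did not pass (log2 change -0.07, SE 0.05, adjusted p = 0.337).

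Catalase was at 46.1, 43.7, 51.8 and 55.1 in G37R libraries, against 45.4, 36.8, 40.4 and 37.5 in controls. The lowest G37R libraries, 1 and 2, lay near or below the highest control, so the ranges overlapped (log2 change 0.29, SE 0.08, adjusted p = 0.0467). Gpx1 was at 339.8, 347, 317 and 294 in G37R libraries, against 346, 420.0, 385 and 380.2 in controls. G37R library 2 lay just above control 1, and the other controls were above every G37R library (log2 change -0.24, SE 0.07, adjusted p = 0.0495). Gpx4 was at 605, 552, 551 and 517 in G37R libraries, against 664, 664, 649 and 638 in controls. All G37R libraries lay below all controls (log2 change -0.23, SE 0.05, adjusted p = 0.0240), and the Gpx4 to Gpx1 ratio was 1.72 ± 0.0864 in G37R and 1.72 ± 0.143 in control libraries. Gpx1 per Cat was 6.70 ± 1.18 in G37R and 9.67 ± 1.58 in controls.

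The peroxiredoxins did not pass in motor neurons. Prdx1 was at 130.2, 115, 161 and 148 in G37R libraries, against 124, 109, 114 and 126 in controls (log2 change 0.22, SE 0.10, adjusted p = 0.148). Prdx6 was at 125, 122, 147 and 143 in G37R libraries, against 116, 110.0, 111 and 129 in controls (log2 change 0.20, SE 0.07, adjusted p = 0.0925). For both genes G37R libraries 3 and 4 were the highest of all 8, and libraries 1 and 2 lay among or close to the controls. Prdx1 passed only when G37R library 2 was left out (adjusted p = 0.0316).

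Markers of other cells moved with these results. The sum of 6 astrocyte markers was 115, 123, 243 and 256 in G37R libraries 1 to 4, against 52.6 to 87.9 in controls, with 6 of 6 higher on average and 1 called. The sum of 8 microglia markers was 24.2, 24.3, 52.2 and 57.2 in G37R, against 7.46 to 11.5 in controls (8 of 8 higher, 6 tested and 6 called). That of 6 oligodendrocyte markers was 442 to 738 in G37R, against 365 to 414 in controls (6 of 6 higher, 1 called). No marker was at 0 in a whole group, but the 8 microglia markers were low in controls. The minimum mean of 1 was taken over G37R and control libraries together. A marker under it in controls could be tested because G37R libraries were high, so the microglia calls are descriptions. Motor neuron marker sums were 1938 to 2365 in G37R and 2169 to 2543 in control libraries. Control astrocytes and oligodendrocytes hold more Ccs and Cat than control motor neurons, and less Gpx1, by the levels above. Gpx4 was similar in control astrocytes and motor neurons and lower in oligodendrocytes. The part of other cells in the motor neuron changes was not tested. Without G37R libraries 3 and 4, which hold the most glial markers, none of the 8 genes passed: Ccs was at 0.26 (adjusted p = 0.104), Cat 0.17 (0.280), Gpx1 -0.15 (0.266) and Gpx4 -0.18 (0.113). That fit held only G37R libraries 1 and 2 beside the controls, and the calls over all genes fell as well. Leaving out any 1 of controls 2, 3 and 4 or G37R library 4 ended all 4 calls, and without G37R library 3 only Ccs passed. Adjusted p over the 8 such fits reached 0.0688 for Ccs, 0.130 for Cat, 0.138 for Gpx1 and 0.0762 for Gpx4. Cat and Gpx1 lost their calls with no filter on low values (adjusted p = 0.0818 and 0.0802), array weights (0.0712 and 0.0615), no trend or robust estimation (0.0718 and 0.0728) and the replicate number as a block (0.0676 and 0.0631), and Gpx1 also with a pseudocount of 5 (0.0515). With quantile normalization Gpx1 and Gpx4 lost theirs (Gpx1 -0.17, adjusted p = 0.126, and Gpx4 -0.14, 0.0604).

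**Figure D2:**
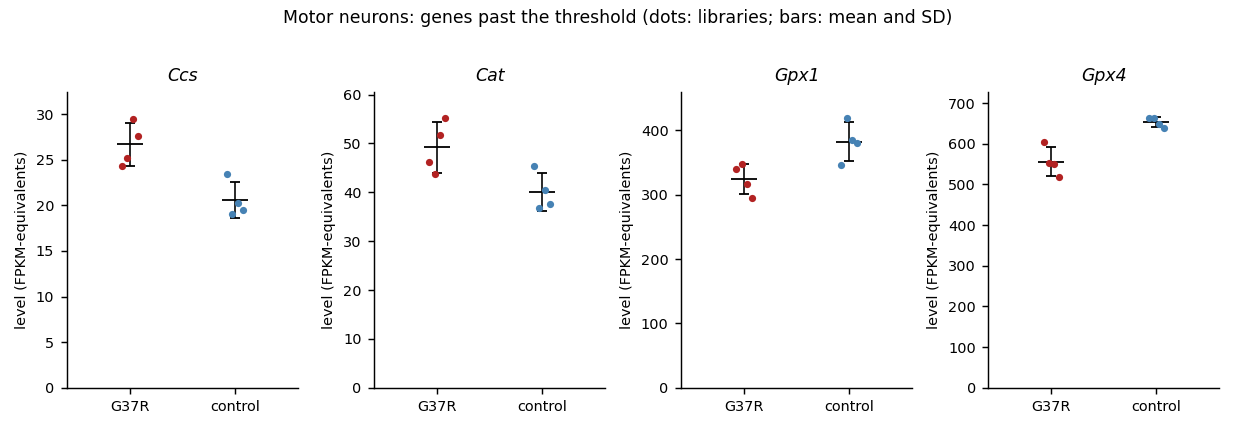
Level of the 4 genes past the threshold in motor neurons, in FPKM-equivalents, with 1 dot per library and bars for mean and SD (G37R left, control right, n = 4 each, axes from 0). The G37R and control dots are apart for Ccs and Gpx4 and overlap for Cat and Gpx1.

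In astrocytes at onset, Gpx1 rose and none of the other 8 genes passed, in a comparison where 2.34% of all genes were called and 1.52% were called higher. The median log2 change was 0.11 over the 9 genes and -0.00 over all genes. Gpx1 was at 524, 363, 419 and 366 in G37R libraries 1 to 4, against a lowest, median and highest of 222, 259.9 and 303 in the 6 controls. The lowest G37R library was above the highest control, as for 5.24% of all genes, and the fold was 1.59 (log2 change 0.67, SE 0.13, adjusted p = 0.0187, 95% interval 0.40 to 0.94). Without G37R library 3 the adjusted p was 0.0566, and the other 9 fits without 1 library kept the call. Gpx1 per Cat was 2.52 ± 0.435 in G37R and 1.49 ± 0.189 in control astrocytes, and Gpx4 per Gpx1 1.96 ± 0.480 and 2.65 ± 0.222.

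Gpx4 was at 895, 737, 1087 and 546 in G37R astrocytes and 625 to 826 in controls, so G37R libraries held both the highest and the lowest value (log2 change 0.21, SE 0.17, adjusted p = 0.559). The summed level of all listed genes was 876030, 828510, 889730 and 735460 in G37R libraries 1 to 4, in the same order as Gpx4. In controls the sum was 718040 to 801310, lowest in control 3 and highest in control 5, as for Gpx4. The part of this sum in the spread between libraries was not tested. Sod1 was at 1370.4, 1119, 1284 and 895 in G37R, against 1009.5 to 1159.7 in controls, with library 4 below all controls and libraries 1 and 3 above them. Prdx6 was at 2900.5, 2053, 2075 and 2337 in G37R, against 1921 to 2253 in controls (log2 change 0.18, SE 0.12, adjusted p = 0.475). The coefficient of variation was larger in G37R than in control astrocytes for 8 of the 9 genes, Cat being the exception. The same count was 6 of 9 in motor neurons, in 8-month cord and in 11-month oligodendrocytes of either mutant. It was 3 of 9 in 11-month cord and 0 of 9 in 8-month oligodendrocytes. These differences in spread were not tested, and the share over all genes was not taken. Ccs was at 95.6, 80.6, 98.9 and 76.4 in G37R, against 68.7 to 81.8 in controls (log2 change 0.19, SE 0.09, adjusted p = 0.321). Cat averaged 166 ± 8.41 in G37R and 176 ± 15.1 in control astrocytes, Prdx1 648 ± 82.9 and 654 ± 54.2, and Sod2 75.1 ± 5.80 and 73.4 ± 3.88. Sod3 averaged 17.3 ± 5.85 in G37R and 18.9 ± 5.30 in controls, with the widest interval of the 9 (-0.62 to 0.36 on the log2 scale). Summed microglia markers were 113 to 141 in G37R and 37.02 to 59.3 in control astrocytes, with 8 of 8 higher on average and 7 called. Summed red blood cell markers were 10.6 to 83.8 in G37R and 11.8 to 65.6 in control astrocytes. On average 3 of 3 of them were higher, and 0 were called. Summed astrocyte markers were 7300 to 10330 in G37R and 5440 to 8019 in controls, with 3 of 6 higher and 0 called. The part of these marker sums in the Gpx1 change was not tested.

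**Figure D3:**
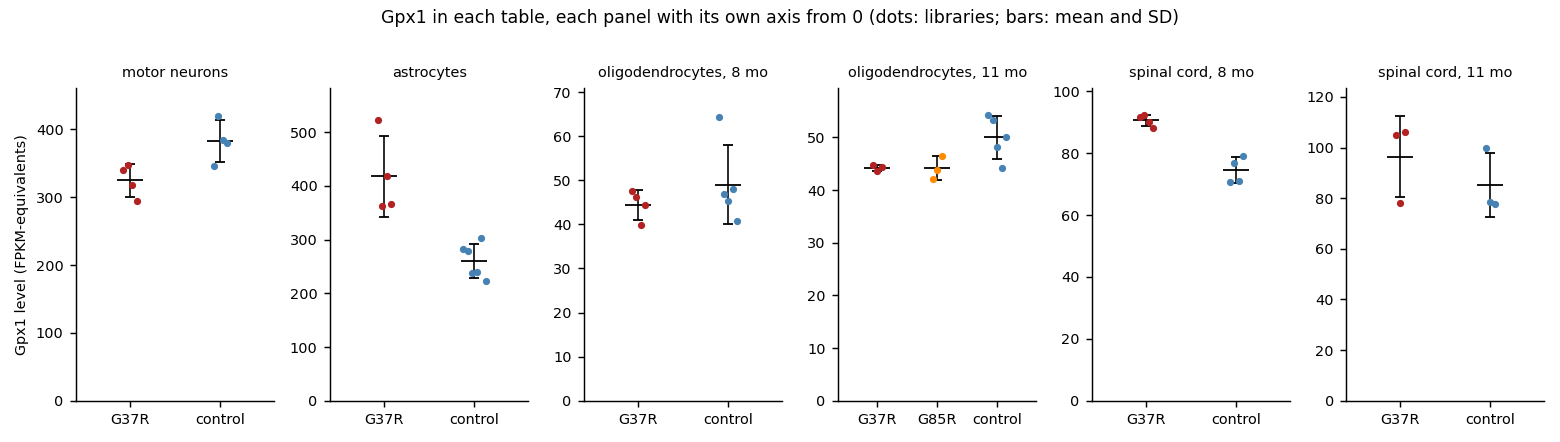
Gpx1 level in each table, in FPKM-equivalents, with 1 dot per library, bars for mean and SD and an axis from 0 in each panel (G37R left, G85R between where present, control right). G37R libraries lie above all controls in astrocytes and 8-month spinal cord, and G37R and control libraries overlap in motor neurons, in oligodendrocytes at both ages and in 11-month cord.

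The change of Gpx1 was in opposite directions in motor neurons and astrocytes, and the difference between both effects passed its own test (-0.91 log2, SE 0.16, adjusted p = 0.00777, motor neurons minus astrocytes). It was the only one of 8 genes to pass, where 2.83% of all genes did, and it passed in all 18 fits that left out 1 library. Without astrocyte G37R library 4, Sod1, Cat and Gpx4 passed as well. The motor neuron and oligodendrocyte effects differed for none of the 8 genes by limma (1 at an unadjusted p under 0.05, Ccs at 0.32, adjusted p = 0.216), where 1.15% of all genes passed.

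In 8-month oligodendrocytes none of the 8 genes tested passed by limma, nor did any have an unadjusted p under 0.05, where 0.109% of all genes were called. The log2 changes ran from -0.12 for Gpx4 to 0.10 for Cat, and 95% intervals for all 8 lay within -0.37 and 0.26. Gpx1 was at 47.6, 46.1, 39.9 and 44.3 in G37R, against 64.4, 46.8, 45.2, 48.0 and 40.7 in controls, where control 1 stood above the rest. Control 1 was also the highest library for Sod1, Sod2, Ccs and Gpx4. Prdx6 was at 156, 142, 133 and 140.1 in G37R, against 153, 139, 125, 136 and 134 in controls, with ranges that overlapped over most of their length. Sod1 was at 486 to 532 in G37R and 479 to 620.0 in controls, Ccs at 60.8 to 65.6 and 52.8 to 76.3, and Prdx1 at 526 to 568 and 504 to 626. Cat was at 119 to 129 in G37R and 102 to 128 in controls, Gpx4 at 341 to 376 and 359 to 497, and Sod2 at 28.4 to 31.8 and 26.3 to 33.8, all overlapping. Sod3 was not tested, at 0.772 to 0.935 in G37R and 0.579 to 1.20 in controls. The Gpx1 effect in astrocytes minus that in these oligodendrocytes was 0.79 log2 (SE 0.18, adjusted p = 0.0454), 1 of 8 genes where 0.489% of all genes passed. It passed in only 4 of 19 fits without 1 library, and not with a pseudocount of 0.1 (adjusted p = 0.0504) or a minimum mean of 5 (0.0527).

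In 11-month oligodendrocytes, Prdx6 rose in G37R mice and none of the other 8 genes passed, although 49% of all genes were called in that comparison, 26.1% higher. The median log2 change was 0.02 over the 9 genes and 0.00 over all genes. Prdx6 was at 199, 223 and 224 in G37R libraries 1 to 3 and 226, 135 and 142 in G85R libraries 1 to 3, against 126, 131, 125, 135 and 145 in the 5 controls. All G37R libraries lay above all controls, whereas of the G85R libraries only library 1 stood clear above them. The G37R change was 1.62-fold (log2 change 0.70, SE 0.15, adjusted p = 0.00455, 95% interval 0.38 to 1.02), and it passed in all 8 fits without 1 G37R or control library. Prdx6 per Prdx1 was 0.422 ± 0.0415 in G37R and 0.234 ± 0.0453 in control libraries. The G37R effect on Prdx6 at 11 months exceeded that at 8 months by 0.64 log2 (SE 0.11, adjusted p = 0.00241), the only one of 8 genes to pass, where 18.7% of all genes passed. The 8-month libraries were all labelled male and those of 11 months were of both sexes, so age, sex and table cannot be told apart. The G85R libraries were part of the 11-month fit and not of the fit of this difference.

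Astrocyte markers moved with Prdx6 here. Their sum was 516, 820.1 and 884 in G37R libraries 1 to 3 and 1074, 253 and 392 in G85R libraries 1 to 3, against 175 to 279 in controls. The libraries with the most astrocyte markers, all 3 of G37R and G85R library 1, were the same 4 that had the highest Prdx6. Microglia markers summed to 123 to 274 in G37R, and to 488, 47.8 and 76.7 in G85R libraries 1 to 3, against 38.9 to 62.3 in controls. In G37R, 5 of 6 astrocyte markers (2 called) and 8 of 8 microglia markers (6 called) were higher on average, and 0 of 6 oligodendrocyte markers were, with 3 called lower. Oligodendrocyte markers summed to 15160 to 21230 in G37R, against 27560 to 28870 in controls 2 to 5 and 5801 in control 1, where Mbp was listed at 0. Motor neuron markers summed to 83.3 to 112 in G37R and 56.4 to 71.2 in controls. Control astrocytes hold far more Prdx6 than control oligodendrocytes, by the levels above, and no astrocyte marker was at 0 in a group. At 8 months the astrocyte marker sum was 216 to 281 in G37R and 172 to 225 in control oligodendrocytes. There 2 of 6 astrocyte markers were higher on average, 1 was called, and Prdx6 did not pass (log2 change 0.06). A higher sum therefore does not mean that all 6 markers were higher. The part of astrocyte RNA in the change of Prdx6 was not tested.

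Gpx4 was at 360.2, 260.3 and 284 in G37R and 246, 348 and 349 in G85R libraries, against 507, 424, 416, 321 and 376 in controls. The summed level of all listed genes had the same order as Gpx4 over the controls. It was 583420, 582450, 568360, 529590 and 552850 in controls 1 to 5. In libraries 1 to 3 the sum was 546560, 491860 and 491470 in G37R and 497230, 535870 and 525220 in G85R. The part of this sum in the Gpx4 values was not tested. Both mutant means of Gpx4 were lower with overlapping ranges, and the G37R change missed the threshold narrowly (log2 change -0.44, SE 0.17, adjusted p = 0.0510). It passed with a minimum mean of 5 (adjusted p = 0.0475), with median centring (0.0483) and in a fit of the G37R and control libraries alone (0.0413). Sod3, low in these cells, was at 1.44, 1.46 and 2.27 in G37R and 1.66, 1.22 and 0.959 in G85R, against 1.26, 0.753, 0.946, 1.07 and 1.49 in controls (log2 change 0.37, SE 0.15, adjusted p = 0.0554 for G37R). Cat was at 117, 127 and 127 in G37R, just above the control range of 110.3 to 116, and G85R at 114 to 129. The Cat change did not pass (log2 change 0.12, SE 0.07, adjusted p = 0.146), except with quantile normalization (0.27, adjusted p = 0.0185). Ranges that do not overlap were found for 43.6% of all genes in this comparison. Gpx1 was at 43.5 to 44.7 in G37R and 42.1 to 46.5 in G85R, against 44.2 to 54.3 in controls (adjusted p = 0.0806 for G37R). Sod1 was at 562, 423 and 413 in G37R and 394, 504 and 459 in G85R, against 617, 590.1, 551, 453 and 507 in controls, with 1 of 3 G37R and 2 of 3 G85R libraries inside the control range. Sod1 per Ccs was 7.26 ± 0.837 in G37R, 7.53 ± 0.279 in G85R and 8.61 ± 0.137 in controls, and the ranges of both mutants (6.39 to 8.06 and 7.35 to 7.86) lay below that of the controls (8.40 to 8.74). Prdx1 was at 530.1, 490.2 and 514 in G37R and 503, 570.2 and 595 in G85R, against 641, 609.9, 644, 481 and 507 in controls, where both mutants lay within the control range (log2 change -0.16, SE 0.12, adjusted p = 0.256 for G37R). Ccs, at 57.6 to 69.7 in G37R, 53.5 to 64.2 in G85R and 53.1 to 71.3 in controls, and Sod2, with means of 30.3 ± 1.90 in G37R, 29.7 ± 2.22 in G85R and 29.0 ± 1.11 in controls (SD), did not pass in either mutant. Without G37R library 1, Sod1 (-0.37, adjusted p = 0.0369), Sod3 (0.44, 0.0459) and Gpx4 (-0.57, 0.0216) passed too. Without control 4, Gpx1 (adjusted p = 0.0278) and Gpx4 (0.0231) passed, and without control 5, Sod3 (0.0348).

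In G85R oligodendrocytes none of the 9 genes passed by limma (2 at an unadjusted p under 0.05, Gpx1 and Gpx4), where 0.00852% of all genes were called. The log2 change was -0.38 for Gpx4 and -0.17 for Gpx1 in G85R (adjusted p = 0.148 and 0.146), beside -0.44 and -0.17 in G37R. Both comparisons share the same 5 controls. G85R minus G37R gave 0 of 9 by limma (1 at an unadjusted p under 0.05), where 0.0426% of all genes passed. That gene was Prdx6 (log2 change -0.40, SE 0.16, adjusted p = 0.332, 95% interval -0.76 to -0.04). Without G85R library 1 the Prdx6 difference was -0.63 (adjusted p = 0.0171). For the other 8 genes the intervals lay within -0.62 and 0.47 log2.

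**Figure D4:**
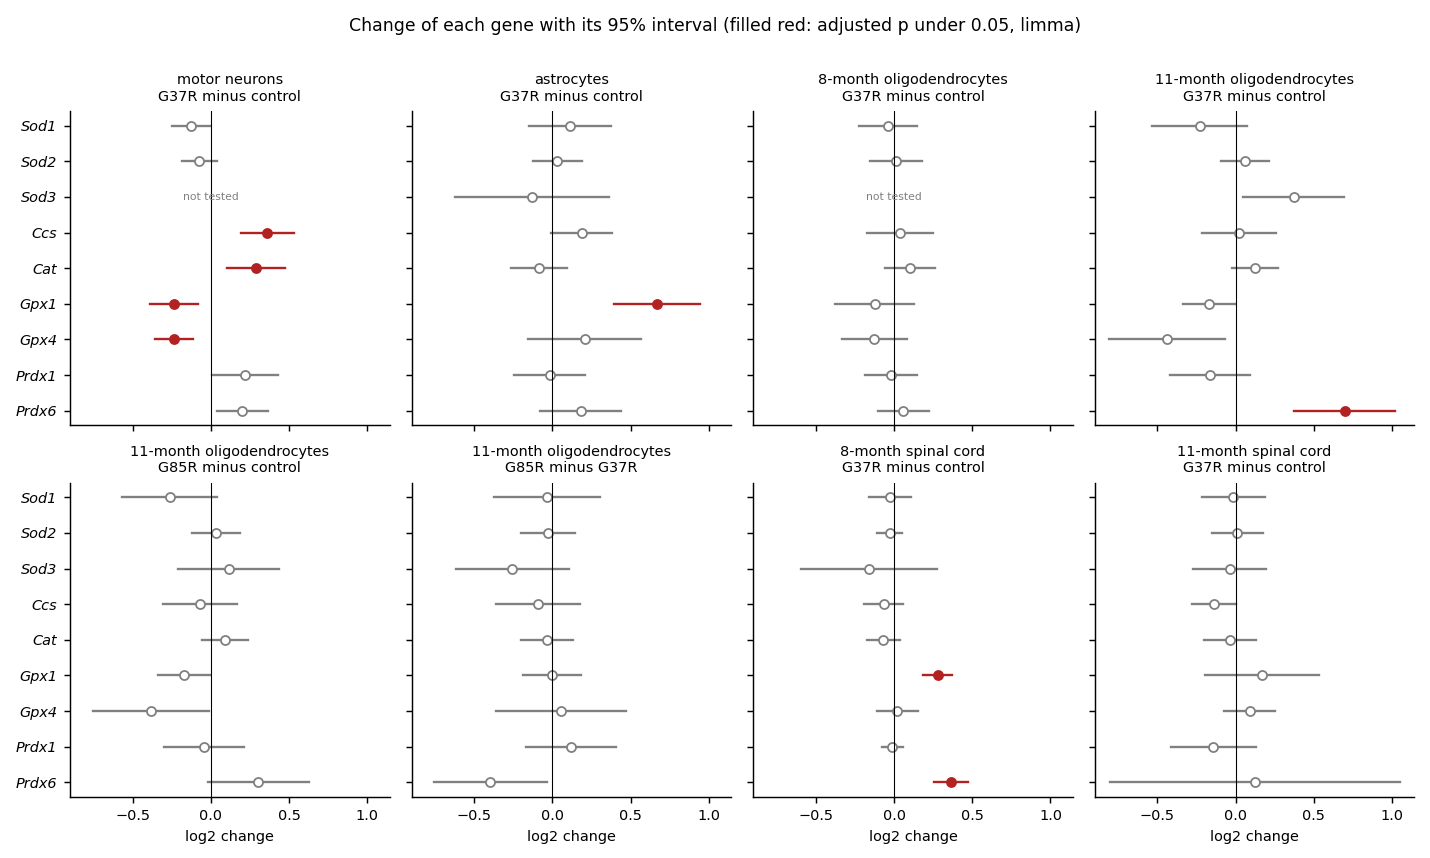
Log2 change of each gene with its 95% interval in the 8 comparisons, with genes down the page and the comparison named above each panel. Filled red points have an adjusted p under 0.05 by limma, and open grey points do not. They are Ccs, Cat, Gpx1 and Gpx4 in motor neurons, Gpx1 in astrocytes, Prdx6 in 11-month G37R oligodendrocytes, and Gpx1 and Prdx6 in 8-month cord.

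In whole spinal cord at 8 months, Gpx1 and Prdx6 rose in G37R mice and none of the other 7 genes passed, where 2.17% of all genes were called, 1.87% higher. In bulk tissue, a change in the number of cells of a type and a change in RNA per cell cannot be told apart. The median log2 change was -0.03 over the 9 genes and -0.01 over all genes. Gpx1 was at 91.6, 92.3, 90.2 and 88.2 in G37R libraries 1 to 4, against 70.8, 76.9, 71.1 and 79.2 in controls. G37R libraries lay within a narrow band above every control (log2 change 0.28, SE 0.04, adjusted p = 0.0126). Prdx6 was at 173, 192, 205 and 194 in G37R, against 145, 150.4, 149.9 and 147 in controls. Again no G37R library reached down to the controls (log2 change 0.36, SE 0.05, adjusted p = 0.00938), and both genes passed in all 8 fits without 1 library. Gpx1 per Cat was 1.83 ± 0.120 in G37R and 1.43 ± 0.0776 in controls, and Prdx6 per Prdx1 1.68 ± 0.144 and 1.29 ± 0.0374. Prdx1 was nearly level, at 116, 111, 112 and 115 in G37R, against 113, 116, 112 and 117 in controls (log2 change -0.01, 95% interval -0.08 to 0.06). The log2 changes of Sod1, Sod2, Ccs, Cat and Gpx4 were -0.03, -0.03, -0.07, -0.07 and 0.02, and that of Sod3 was -0.16 with a wide interval (-0.59 to 0.27). Glial markers moved with this pair: astrocyte sums were 1847 to 2489 in G37R and 1367 to 1814 in controls (6 of 6 higher, 0 called, by limma), and microglia sums 605 to 945 and 339.6 to 421 (8 of 8 higher, 6 called). Ranges were apart for 9.94% of all genes. The part of glial markers in the changes was not tested.

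At 11 months none of the 9 genes passed in cord by limma, nor at an unadjusted p under 0.05, where 0.0217% of all genes were called. Prdx6 was at 265, 183 and 310.3 in G37R libraries 1 to 3, against 353, 185 and 177 in the libraries labelled control 1 to 3. The library labelled control 1 was the highest of all 6, and G37R library 2 lay with the libraries labelled control 2 and 3. The tables cannot check the genotype of these libraries, so an exchange of genotype labels cannot be told apart from a spread between libraries, for any value of 11-month cord. An exchange of labels between control 1 and control 3 alone would also match the sex reads and would leave G37R minus control unchanged. Neither exchange was tested. Gpx1 had the same split, at 105, 78.0 and 106 in G37R and 99.7, 78.3 and 77.7 in controls. Astrocyte markers summed to 2128, 1359 and 2758 in G37R libraries 1 to 3, against 3091, 1280 and 1171 in the libraries labelled control 1 to 3, and microglia markers to 1220, 587 and 1657, against 1962, 585 and 521. With both libraries that went against their labelled sex left out, the log2 change was 0.41 for Prdx6 and 0.28 for Gpx1, and again 0 of 9 genes passed, with 1 control left that is assumed to vary like the G37R libraries. Ccs was at 22.5, 21.4 and 23.2 in G37R, against 23.5, 24.8 and 26.1 in controls, with ranges apart but no call (log2 change -0.14, SE 0.06, adjusted p = 0.892). Ranges were apart for 12.3% of all genes. The other superoxide dismutases and peroxide enzymes overlapped, with Sod1 at 463, 414 and 408 in G37R and 401, 434 and 464 in controls, and Prdx1 at 149.9, 123 and 144 in G37R and 179, 141 and 142 in controls. Sod2 was at 35.0 to 38.0 in G37R and 33.1 to 38.1 in controls. Sod3 averaged 11.9 ± 0.313 in G37R and 12.3 ± 1.80 in controls, Cat 55.4 ± 4.57 and 56.8 ± 2.25, and Gpx4 186 ± 11.4 and 175 ± 7.16 (SD, n = 3 each). Prdx6 had the widest interval of the 9 (-0.80 to 1.05 log2), and a change of the size seen at 8 months lies inside it. The 11-month effect minus the 8-month effect passed for 0 of 9 genes by limma, with 0 at an unadjusted p under 0.05 and 0% of 13590 genes called (-0.24 for Prdx6, 95% interval -0.93 to 0.45). Without the libraries labelled control 1 and 3 the Prdx6 difference was 0.05, and again 0 of 9 genes passed.

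**Figure D5:**
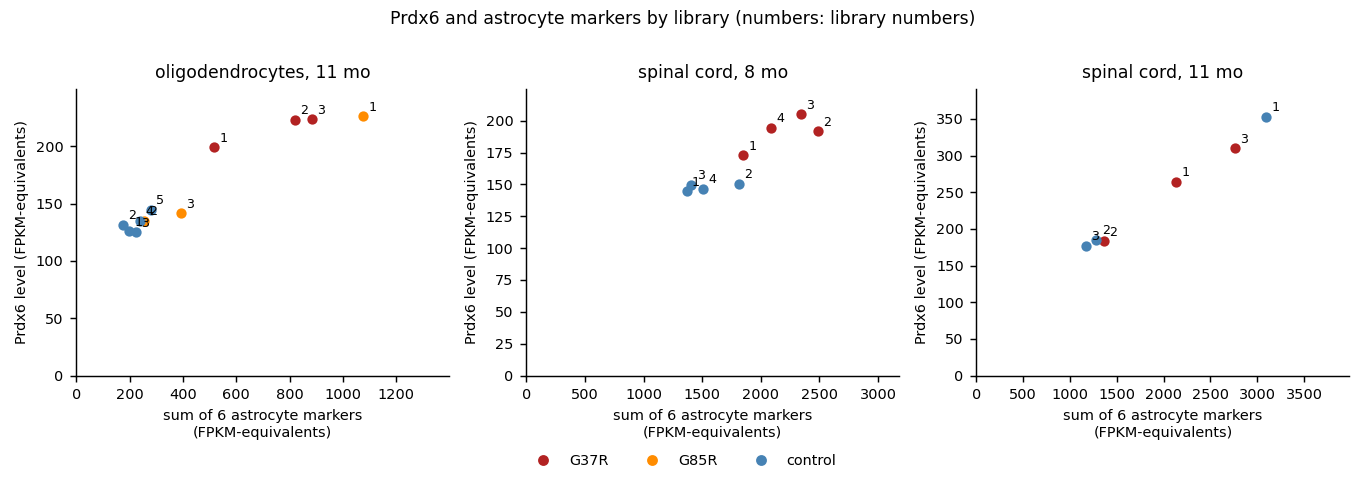
Prdx6 level (vertical) against the summed level of 6 astrocyte markers (horizontal) in 11-month oligodendrocytes and in 8- and 11-month spinal cord, both in FPKM-equivalents, with 1 dot per library and its library number (G37R red, G85R orange, control blue). In 11-month cord the library labelled control 1 is at the upper right and G37R library 2 at the lower left beside the other controls.

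Genes around the 9 were read from 6 lists, to be held against the shares of all genes called: 12.9% in motor neurons (6.49% higher and 6.37% lower), 2.34% in astrocytes (1.52% higher), 49% in 11-month G37R oligodendrocytes (26.1% higher) and 2.17% in 8-month cord (1.87% higher). The list genes called were refitted without 1 library at a time, a step added after seeing the data. In motor neurons 1 of 12 stayed called in every such fit (Scly), 2 of 4 in astrocytes (Mt1 and Mt2), 8 of 31 in 11-month G37R oligodendrocytes (Prdx2, Nxn, Gsta4, Gstm5, Gstp1, Sepp1, Lrp8 and Pex26) and 3 of 9 in 8-month cord (Mt1, Rac2 and Cyba). No list gene called changed sign in these fits. Without motor neuron G37R libraries 3 and 4, which hold the most astrocyte and microglia markers, 1 of the 12 passed, again Scly (adjusted p = 0.0222), and Ncf1 was then under the minimum mean. The part of other cells in the motor neuron list calls was not tested.

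Among 14 genes that make superoxide or peroxide, 8 were tested in motor neurons, where 2 rose, among them the phagocyte oxidase subunit Ncf1, and 0 fell. In 8-month cord 6 of 13 tested rose and 0 fell, all 6 subunits of the phagocyte NADPH oxidase or its partner Rac2. Ncf1 in motor neurons, and Cybb and Ncf4 in cord, were under the minimum mean of 1 in controls and were tested only because G37R libraries were high, so these 3 calls and the counts that hold them are descriptions. Cybb, the catalytic subunit, averaged 2.06 ± 0.881 in G37R and 0.197 ± 0.0133 in control libraries. Its partner Cyba averaged 23.0 ± 3.52 in G37R and 10.9 ± 1.40 in control libraries (log2 change 1.01, adjusted p = 0.00967). In 11-month G37R oligodendrocytes 6 of 9 rose, where 26.1% of all genes did, and 0 fell, among them Acox3, Ncf1 and Cyba, and in astrocytes Ncf1 rose, 1 of 9. The microglia marker sums given for each of these tables were higher in the same groups, and their part in these changes was not tested.

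Of 13 genes of copper uptake and delivery, Atox1, which hands copper to the secretory pathway, fell in motor neurons and averaged 799 ± 88.0 in G37R and 1038 ± 45.9 in control libraries (log2 change -0.38, adjusted p = 0.0152). Mt3, a brain metallothionein, fell there as well (2047 ± 107 in G37R and 2356 ± 131 in control libraries), so 0 rose and 2 fell of 11 tested. In astrocytes 2 of 11 rose, the metallothioneins Mt2 (21680 in G37R and 9588 in control libraries, log2 change 1.18, adjusted p = 0.00278) and Mt1 (32750 and 16080, log2 change 1.02, adjusted p = 0.0102). The same pair rose in 8-month cord, 2 of 13, with Mt1 at 1673 ± 208 in G37R and 956 ± 112 in control libraries and Mt2 at 1008 ± 155 in G37R and 521 ± 109 in control libraries. At 11 months, G37R oligodendrocytes had 1 higher and 4 lower of 11, a share near the 49% of all genes, among them Atox1 (170.4 ± 49.5 in G37R and 262 ± 49.4 in control libraries) and Cox17, which carries copper toward cytochrome oxidase (222 ± 60.9 in G37R and 359.8 ± 69.4 in control libraries).

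Selenoprotein genes bear on Gpx1 and Gpx4, which need selenocysteine. Of 12 genes of selenoprotein synthesis and transport, 1 rose and 0 fell in motor neurons: Scly, which frees selenium from selenocysteine (20.1 ± 0.731 in G37R and 15.5 ± 0.399 in control libraries, log2 change 0.36, adjusted p = 0.00714). The share called was under the 12.9% of all genes in motor neurons. In 11-month G37R oligodendrocytes 1 rose and 5 fell of 12, again near the 49% of all genes, among them the selenium carrier Sepp1 (798 ± 162 in G37R and 1286 ± 92.4 in control libraries, log2 change -0.70, adjusted p = 0.00228) and the selenoprotein Sepw1 (log2 change -0.73, adjusted p = 0.0139), while Lrp8, a Sepp1 receptor, rose (log2 change 0.51, adjusted p = 0.00639). In astrocytes 0 of 12 and in 8-month cord 0 of 12 passed by limma, with 0 at an unadjusted p under 0.05 in either.

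Of 10 genes of catalase import into peroxisomes, 2 of 9 tested rose in motor neurons and 0 fell, among them Pex5, the import receptor (15.7 ± 1.29 in G37R and 12.6 ± 0.563 in control libraries, log2 change 0.30, adjusted p = 0.0216). In 11-month G37R oligodendrocytes 2 of 9 rose, Pex26 and Pex5, and 1 fell, where 49% of all genes were called. Of 19 glutathione genes, Gss, glutathione synthetase, rose in motor neurons (21.3 ± 2.002 in G37R and 16.03 ± 1.60 in control libraries, log2 change 0.39, adjusted p = 0.0192), while Mgst3 and Gclm, a subunit of the rate-limiting ligase, fell (log2 change -0.25, adjusted p = 0.0213, and log2 change -0.24, adjusted p = 0.0347), 1 and 2 of 18 tested. The share called was near the 12.9% of all genes in motor neurons. Of 16 tested in 11-month G37R oligodendrocytes, 2 rose and 4 fell, a share under that of all genes, with Gsta4 at 70.3 ± 3.76 in G37R and 44.5 ± 3.33 in control libraries (log2 change 0.65, adjusted p = 0.00120), and in 8-month cord Mgst1 rose, 1 of 19. In astrocytes 0 of 19 passed by limma (4 at an unadjusted p under 0.05). Of 16 genes of the thioredoxin system and other peroxiredoxins, Sesn2 rose and Sesn3 fell in motor neurons, both stress-responsive sestrins (log2 change 0.32, adjusted p = 0.0182, and log2 change -0.45, adjusted p = 0.0187). With 1 higher and 1 lower of 16, the share called was again near the 12.9% of all genes. Nucleoredoxin, Nxn, rose in astrocytes (51.5 ± 5.92 in G37R and 36.9 ± 3.27 in control libraries), 1 of 16. In 11-month G37R oligodendrocytes 3 rose and 2 fell of 16, also a share under that of all genes, and Prdx2, a cytosolic peroxiredoxin like Prdx1, was at 380.4 ± 21.2 in G37R and 281 ± 13.4 in control libraries (log2 change 0.43, adjusted p = 0.00254). In 8-month oligodendrocytes 0 genes of any of the 6 lists passed by limma, nor in G85R oligodendrocytes or 11-month cord. At an unadjusted p under 0.05 the lists held 0 to 2 genes in 8-month oligodendrocytes, 1 to 8 in G85R oligodendrocytes and 0 to 3 in 11-month cord.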

How the data were processed

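The samples were 52 poly(A) RNA libraries, read as single ends, of ribosome-bound mRNA from purified cells and of whole spinal cord. Tools named in the submitters' processing notes were Cufflinks, Cuffdiff and TopHat2 (2.0.8b), with the build mm9, and no role or setting is given in the sources used here. The authors deposited 6 tables of 23697 genes: FPKM in the 11-month spinal cord table, and in the other 5 a signal also called FPKM but on a scale about 16774 times as high. That factor is the median over 13810 genes of 8-month to 11-month cord ratios (quartiles 15209 to 18442). All 5 tables were divided by it, which for purified cells is an assumption and cancels in every comparison within a table apart from the pseudocount and filter. Rows were matched by symbol. Genes with a mean of at least 1 in a table were tested on log2(value + 1) with limma 3.58.1 (R 4.3.3, trend and robust), separately per table, with Benjamini-Hochberg adjustment and a threshold of 0.05. The fold understates the change of low genes. Differences between tables' effects were tested as contrasts. Absolute depth is unknown, so no counting interval is given. All 9 genes are described. Of the 6 lists, at most 4 genes past the threshold per list and comparison are named, by smallest adjusted p. The genes and lists were chosen with earlier results of these data known. Alternatives were other pseudocounts, filters, scalings, weights, variance models, a replicate block, sex and leaving out libraries. Some genes of the lists and some sequences are not reported here.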

Additional observations from a re-analysis of the deposited data

Results flagged for a closer look

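Dixon's test was applied to each of the 9 genes in every group of 4 to 6 libraries, 81 groups in all, of which chance is expected to pick about 1 in 20. It picked 3, all for Gpx4. Library 5 of the control astrocytes was the highest of 6 at 826 FPKM-equivalents, library 4 of the 8-month G37R oligodendrocytes the lowest of 4 at 341, and library 1 of the 8-month G37R spinal cord the highest of 4 at 197.

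The G37R effect differed between groups for Gpx1 and Prdx6 by the test of the difference itself in limma. For Gpx1, motor neurons minus astrocytes was -0.91 log2 (adjusted p = 0.00777) and astrocytes minus 8-month oligodendrocytes 0.79 (adjusted p = 0.0454). For Prdx6, 11-month minus 8-month oligodendrocytes was 0.64 (adjusted p = 0.00241), where age, sex and table cannot be told apart.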

How the results depend on the processing

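Over 1244 values of the 9 genes with 1 library left out, 1198 stayed on their side of the threshold, 35 lost a call, 11 gained one and 0 that passed in either fit changed sign, while 85 that passed in neither did. Over 962 values under other settings these counts were 932, 19, 11, 0 and 36. The cause of a change was not tested.

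Without 1 library, the genes of the 9 past the threshold numbered 0 to 5 in motor neurons (4 with all libraries), in astrocytes 0 to 1 (1), 1 to 4 in 11-month G37R oligodendrocytes (1), 0 to 1 for G85R minus G37R (0), 1 to 4 for motor neurons minus astrocytes (1) and 0 to 1 for astrocytes minus 8-month oligodendrocytes (1). In motor neurons 2 passed with no filter, quantile normalization, array weights or no trend and robust estimation, and 0 without G37R libraries 3 and 4. In 11-month G37R oligodendrocytes 2 passed with a minimum mean of 5, quantile normalization, median centring or a fit of G37R and control alone, and 7 with array weights, whose estimate did not converge. G85R minus G37R gave 1 with array weights, and astrocytes minus 8-month oligodendrocytes 0 with a pseudocount of 0.1 or a minimum mean of 5.

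Library numbers did not pair the samples: deviations of same-numbered libraries correlated at -0.265 to 0.352. With the replicate number as a block, 2 genes passed in motor neurons, 0 in astrocytes and 1 in 8-month cord, and 810, 49 and 91 of all genes (1582, 292 and 300 without it). The block gave 7 of all genes in 8-month oligodendrocytes (13), 0 for 11-month G85R (1) and 2 for G85R minus G37R (5).

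Counts over all genes without 1 library were 274 to 2136 for motor neurons, 138 to 296 for astrocytes, 7 to 17 in 8-month oligodendrocytes, 2805 to 6549 (5750 with all libraries) in 11-month G37R and 0 to 2 in G85R oligodendrocytes, 2 to 315 for G85R minus G37R, 80 to 482 in 8-month and 4 to 10 in 11-month cord (3). For the differences they were 108 to 1590 (322), 22 to 319 (130), 21 to 626 (56), 755 to 3845 (2156) and 0 to 1 (0), in the order motor neurons minus astrocytes, motor neurons minus oligodendrocytes, astrocytes minus oligodendrocytes, oligodendrocyte ages and cord ages. Array weights gave 522 in astrocytes, 25 in 8-month oligodendrocytes, 8891 in 11-month G37R, 96 in G85R and 3717 for G85R minus G37R, where quantile normalization gave 11. No filter gave 1026 in motor neurons, 0 in G85R, 109 for astrocytes minus oligodendrocytes and 2 for cord ages, and leaving out motor neuron G37R libraries 3 and 4 gave 261. A minimum mean of 5 gave 6 in 8-month oligodendrocytes, 135 in 8-month cord, and 158, 34 and 29 for the first 3 differences. For G85R a pseudocount of 5 gave 0, no trend 2 and the sex term 0. In 11-month cord a pseudocount of 5 gave 1, and for cord ages a pseudocount of 0.1 gave 1. Both 11-month cord alternatives chosen after seeing the data kept 0 of the 9 genes: 22 genes passed without the controls labelled 1 and 3, and 2 with the sex read from Y-linked genes.

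Depth is not known, so low values such as Sod3 in motor neurons carry counting error that was not measured.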
